A study of Mus musculus with 2 samples.

Results

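The malate-aspartate shuttle genes described here are the aspartate aminotransferase genes Got1 and Got2 and the malate dehydrogenase genes Mdh1 and Mdh2. With them stands Gm10874, a non-coding gene that lies opposite a Got2 pseudogene. These 5 genes, of 25004 in the count tables, were taken by symbol, and the counts of all RefSeq transcripts of a gene were summed. They were chosen by measured values, the ratio of Got1 between the libraries and the high count of Gm10874, so these values are given as a description with no test. Of the 5 genes, 4 had enough counts for a ratio between the libraries, and Mdh1 had none, so the data cover 3 of the 4 enzymes that the name of the set promises.

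Hearts of FvB/N mice aged 12 weeks were sequenced in 1 library from non-transgenic controls and 1 library from transgenic mice. The transgene encodes cardiac myosin binding protein-C, a thick-filament protein of the sarcomere, with a deletion of its amino-terminal C0-C1f region. Each library pooled 3 hearts. No source used here gives the promoter of the transgene, the number of founder lines, the sex of the mice or whether the normal protein was still made. The comparison asks which messenger RNA levels the transgenic hearts shared with controls and which they did not. Because each group is 1 library, there is no replicate check and no test of genotype, and every interval and floor below covers counting error only.

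The inner mitochondrial membrane does not let NADH through, and the malate-aspartate shuttle carries its electrons into the mitochondrion instead. In the cytosol, malate dehydrogenase (Mdh1) uses NADH to turn oxaloacetate into malate, which enters in exchange for 2-oxoglutarate. In the matrix, Mdh2 turns malate back into oxaloacetate and NADH. The aminotransferase Got2 then makes aspartate, which leaves the mitochondrion, and Got1 turns it back into oxaloacetate in the cytosol. The shuttle is a main route for cytosolic NADH in heart muscle, and Mdh2 is also an enzyme of the tricarboxylic acid cycle.

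Library totals were 170543 counts (non-transgenic) and 190824 counts (transgenic), spread over 6725 and 7081 genes. In every pair of values below the non-transgenic library comes first. Levels are given as CPM, counts per 1000000 counts of a library whose size was adjusted by its TMM factor, and 1 count stood for 6.22 and 4.94 CPM. A count of 0 is set against a floor of 3 counts, or 18.6 and 14.8 CPM. Mybpc3, the gene the transgene derives from, had 344 and 398 counts, a figure that does not separate the transgene from the mouse gene. Of 11 cardiac muscle markers, 9 had counts, with summed levels of 31736 and 41134 CPM, and Tnnt2 and Myl3 were at 0. Among the 9, Myh6 had only 0 and 1 counts and Pln 2 and 1, while Myl2 had the most, 2405 and 3916. The 3 liver markers (Alb, Apoa1 and Ttr) and the 5 red blood cell markers were at 0 in both libraries. All 5 fibroblast markers had counts, with summed levels of 267 and 148 CPM, and 3 of 5 endothelial markers, with 429 and 346 CPM. Of the fibroblast markers, Pdgfra had only 0 and 1 counts and Dcn 1 and 1, while Col3a1 had the most, 23 and 14. Atrial markers had 9 and 31 counts, all on Nppa, with Myl7, Myl4 and Sln at 0. Xist, the RNA that coats the inactive X chromosome of female cells, had 0 and 20 counts, and Tsix, the gene opposite it, 0 and 137. The Y-linked gene Ddx3y had 1 and 0 counts, and Kdm5d, Uty and Eif2s3y had none. The part of these marker and sex-chromosome differences in the ratios below was not tested. In such bulk tissue, fewer cells of a type and less RNA per cell cannot be told apart.

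Got1 was counted higher in the transgenic library, while Got2 and Mdh2 had ratios near 1 and Gm10874 was somewhat lower. Got1 encodes the cytosolic aminotransferase and lies on chromosome 19 (43499752 to 43524605, minus strand, GRCm38). Counts were 40 in controls and 144 in transgenic hearts, or 249 and 712 CPM. The 95% counting intervals of these counts, 28.6 to 54.5 and 121 to 170, did not overlap. Dividing the transgenic by the non-transgenic level gave a ratio of 2.86 with an exact counting interval of 2.0 to 4.17. Across the 5 scalings of the libraries that were tried, this ratio lay between 2.80 and 3.22.

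**Figure D1:**
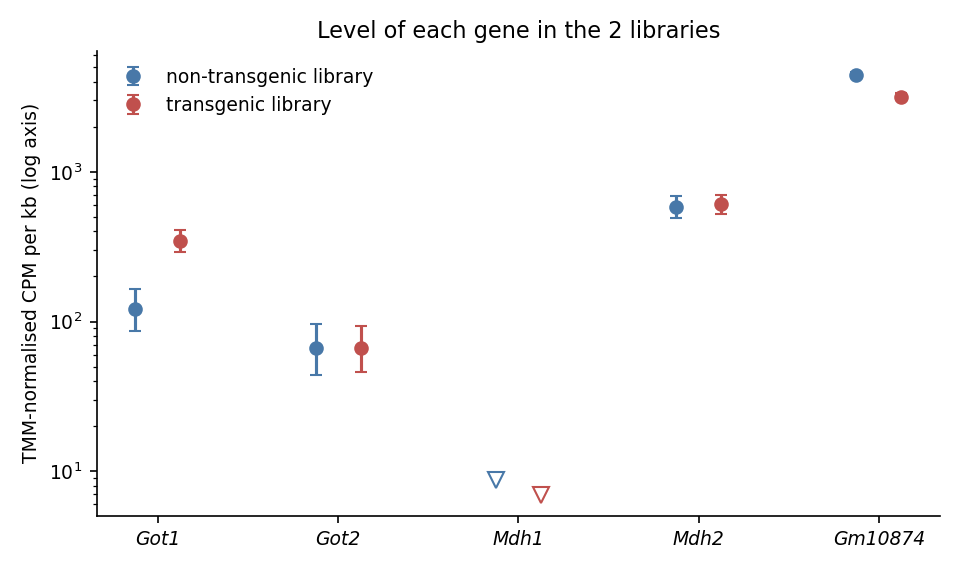
TMM-normalised level (CPM per kilobase of transcript, log axis) for the 5 genes in the non-transgenic (blue) and transgenic (red) library, with exact 95% counting intervals. The intervals are apart for Got1 and Gm10874 and overlap for Got2 and Mdh2, and the open triangles for Mdh1 stand at the floor of 3 counts because no read was counted.

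Among all 4236 genes with a ratio, that is with more than 3 counts in a library, 2.48% were at least 2-fold higher with an interval above 1, and 3.71% at least 2-fold lower with an interval below 1. Got1 is 1 of the 105 genes in the first group, and since this contrast chose it, nothing is read from its place there. With DESeq2 size factors the higher genes made up 58.6% of these 2-fold calls, and with total counts 63.7%, in place of 40.1%. Of the 513 genes whose summed count reached 100, Got1 had the third highest ratio, a description since that ratio chose it. The 2 genes above it were Rps18-ps4, a pseudogene named after a ribosomal protein, with 1 and 688 counts, and Tsix. The ratio of Tsix, 36.3, takes the floor in place of a count of 0 and is not a lower bound. No gene on the opposite strand overlaps Got1. The nearest are Cnnm1, 2541 bp away, with 0 counts in both libraries, and AC138790.3, 3706 bp away. AC138790.3 was not among the genes named in the counts. The Got1 transcript also had no similar stretch of at least 100 bases and 75% identity in any other annotated gene, and its longest run shared with Got2 was 12 bases.

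The 3 genes whose levels in the 2 libraries lay nearest to those of Got1 were Tmsb4x, Dlat and Atp5h. They were the nearest of 2195 named genes with counts in both libraries and no overlapping gene on the other strand, by the distance of log2 CPM over 2 libraries, each at a distance of 0.54. Tmsb4x encodes thymosin beta-4, which binds actin, and had 47 and 103 counts, a ratio of 1.74 (1.22 to 2.52). Dlat, the acetyltransferase subunit of pyruvate dehydrogenase, had 37 and 100 counts, a ratio of 2.15 (1.46 to 3.22). Atp5h, a subunit of ATP synthase, had 52 and 110 counts, a ratio of 1.68 (1.20 to 2.39). All 3 had smaller ratios than Got1, which is no separate result because Got1 was chosen for its ratio. Likeness over 2 libraries describes level and ratio alone.

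**Figure D2:**
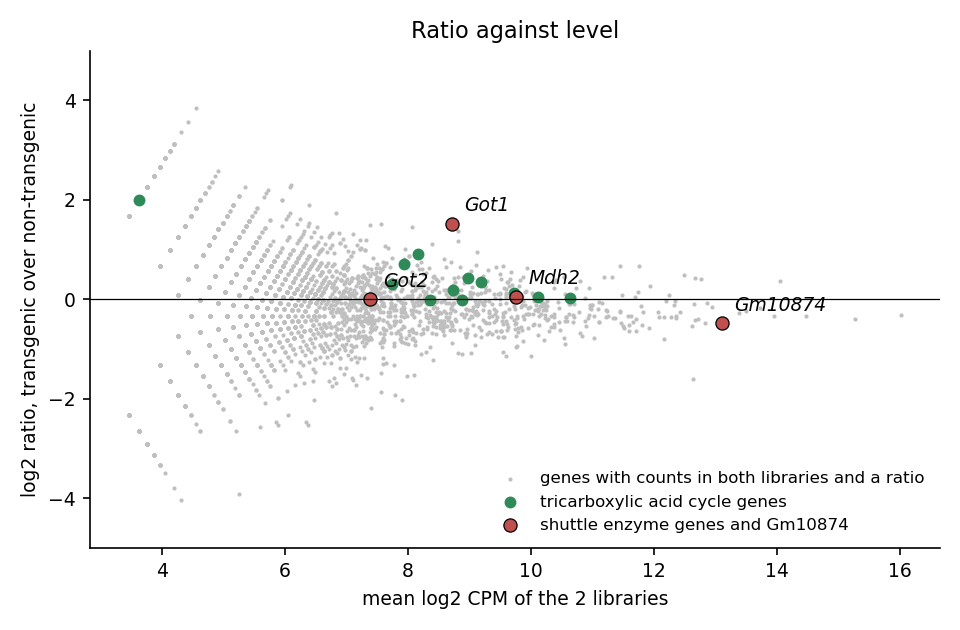
Log2 ratio (transgenic over non-transgenic) against the mean log2 CPM of the 2 libraries for genes with a ratio and counts in both libraries (grey), the tricarboxylic acid cycle genes (green) and the shuttle enzyme genes and Gm10874 (red). Got1, chosen for its ratio, stands at 1.52, Got2 and Mdh2 lie at 0.00 and 0.05, and Gm10874 lies at -0.48 among the most counted genes. Rps18-ps4 lies above the range drawn.

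Got2 encodes the mitochondrial aminotransferase and lies on chromosome 8 (95864134 to 95888547, minus strand). It had 27 and 34 counts, 168 CPM in each library. Its ratio was 1.00 with a counting interval of 0.586 to 1.73, so a smaller difference in either direction was not detectable at this depth. The sign of its log2 ratio changed from 0.00 to -0.03 with upper-quartile scaling. The counts of the isoenzymes can also be set against each other within a library, where no scaling enters. This restates the ratio that chose Got1 and is given as a description. Got1 had 1.48 counts for each count of Got2 in the non-transgenic library (0.887 to 2.51) and 4.24 in the transgenic library (2.90 to 6.35). The second of these was 2.86 times the first, with an exact counting interval of 1.47 to 5.51. Per base of transcript, the level of Got1 was 1.82 times that of Got2 (1.09 to 3.09) in the non-transgenic and 5.21 times (3.56 to 7.81) in the transgenic library. Gm45760, opposite Got2, and the further Got2 pseudogenes Gm3922, Gm8704 and Gm43551 (89.2% to 90.3% identity) were not among the genes named in the counts.

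The count of Got2 has to be read beside that of Gm10874, because their transcripts share sequence on opposite strands. Gm10874 lies on chromosome 5 (138363719 to 138388287, plus strand) and has 4 exons. Its exon 1 of 1633 bases overlaps Got2-ps1, a processed pseudogene on the minus strand (138364260 to 138365552), over 1092 bases. Processed pseudogenes are copies of spliced messenger RNA put back into the genome. Got2-ps1 spans the full coding length of Got2, 1293 bases, with 11 differences (99.1% identity). Read on its opposite strand, Gm10874 matched the Got2 transcript of 2530 bases over 1637 bases without a gap, from position 440 to 2076, with 20 differences (98.8% identity). This stretch was 69.5% of the Gm10874 transcript of 2355 bases. The longest run without a difference was 315 bases.

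The following 100 bases are the part of the coding sequence with 3 close differences. Within the matched stretch, such bases tell a read of Got2 from a read of Got2-ps1. RNA of Gm10874 differs from Got2 RNA in strand as well. Capitals mark the bases that differ between Got2 and the pseudogene locus, and each line reads 5′ to 3′. In Got2 the stretch joins the end of exon 4 (chr8:95874404-95874416) to exon 5 (chr8:95872251-95872337) on the minus strand of GRCm38. In the other lines it lies at chr5:138365031-138365130, on the minus strand for Got2-ps1 and on the plus strand for Gm10874, which is therefore its reverse complement.
Got2: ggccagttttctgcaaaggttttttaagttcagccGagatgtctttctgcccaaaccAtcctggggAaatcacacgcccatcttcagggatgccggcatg
Got2-ps1: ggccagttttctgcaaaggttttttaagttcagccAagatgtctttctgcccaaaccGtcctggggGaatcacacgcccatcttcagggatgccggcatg
Gm10874: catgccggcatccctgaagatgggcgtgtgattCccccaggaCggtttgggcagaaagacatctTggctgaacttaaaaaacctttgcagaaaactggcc
The substitutions from Got2 to the pseudogene, counted from 1 at the first base of the Got2 transcript, are G700A, A722G and A731G. The rest of the 100 bases is identical.

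**Figure D3:**
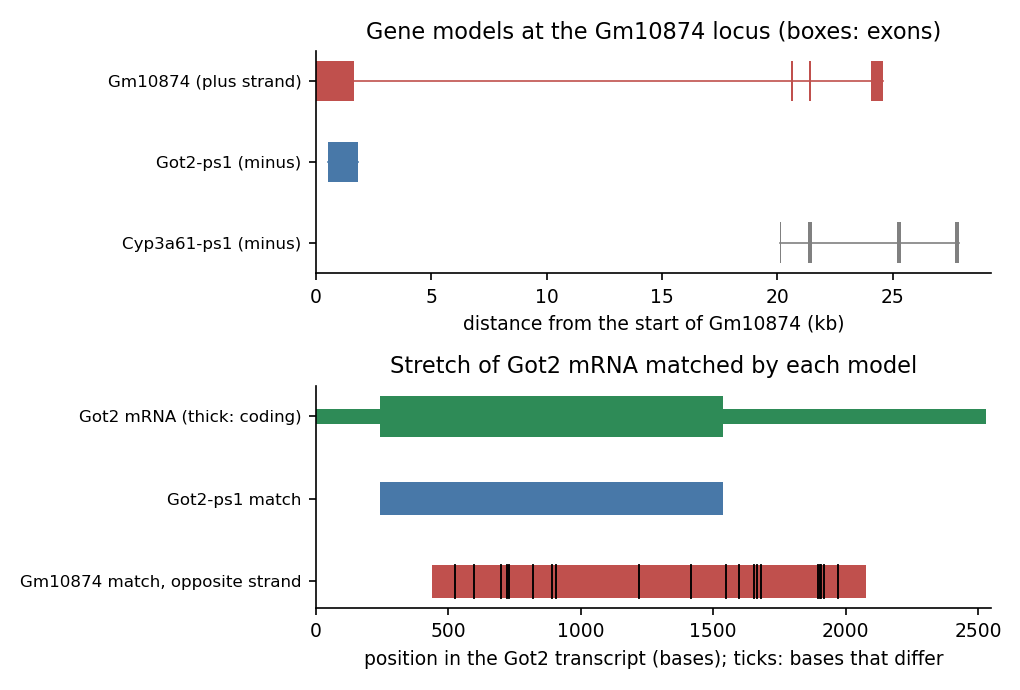
Top, exons (boxes) of Gm10874, Got2-ps1 and Cyp3a61-ps1 by distance in kb from the start of Gm10874. Bottom, the Got2 transcript in bases with its coding part thick, the stretch matched by Got2-ps1, and the stretch of 1637 bases matched by the opposite strand of Gm10874, with ticks at the 20 bases that differ.

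Part of the fragments of Got2 RNA cannot be told from fragments of Gm10874 by sequence when strand is left aside. Of all 75-base stretches of the Got2 transcript, 25.8% (634 of 2456) occur without a change on the opposite strand of Gm10874. The share was 36.0% for 50 bases and 19.0% for 100 bases. The part of Got2-ps1 beyond Gm10874, which matches Got2 from position 243, is not in these shares. No source used here gives the length of the reads or the treatment of reads that match several places. The match is not found for the other enzymes: no run longer than 13 bases was shared between Gm10874 and Got1 or Mdh2 on either strand.

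Gm10874 was among the most counted genes of the heart libraries. With 1679 counts it ranked 10 of 25004 genes in controls, and with 1511 it ranked 12 in transgenic hearts. These were 0.985% (exact interval 0.938 to 1.03) and 0.792% (0.753 to 0.833) of all counts. Its ratio was 0.716, with a counting interval of 0.667 to 0.767, which is 1.40-fold lower in the transgenic library. Genes that overlap a gene on the opposite strand, as Gm10874 does, had a median log2 ratio of -0.26 over the 795 with at least 30 counts, against -0.48 for Gm10874. That log2 ratio became -0.37 when DESeq2 size factors were used and -0.31 when total counts were, and its interval stayed below 1 in all 5 scalings.

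Per base of transcript, the level of Gm10874 was 66.8 times that of Got2 (45.7 to 102) in the non-transgenic and 47.7 times (34.0 to 69.2) in the transgenic library. The ratio of Gm10874 to Got2 counts was 0.715 times as high in the transgenic library, with an interval of 0.413 to 1.23 that includes 1. Got2-ps1 and Cyp3a61-ps1, the pseudogenes opposite Gm10874, were not among the genes named in the counts. Whether a count of Gm10874 came from its own strand, from the pseudogene or from Got2 messenger RNA was not tested, and the counts of both genes are uncertain for this reason.

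Mdh2, the mitochondrial malate dehydrogenase, lies on chromosome 5 (135778480 to 135790398, plus strand) and was the most counted of the enzyme genes. It had 137 and 179 counts, 852 and 885 CPM, and the counting intervals of 115 to 162 and 154 to 207 overlapped. Its ratio was 1.04 (0.827 to 1.31) and lay between 1.02 and 1.17 across the 5 scalings. Got1 was counted at 0.292 of Mdh2 (0.200 to 0.418) in the non-transgenic and at 0.804 (0.641 to 1.01) in the transgenic library, 2.76 times as much (1.79 to 4.29). Got2 stood at 0.197 (0.125 to 0.299) and 0.190 (0.128 to 0.275) of Mdh2, 0.964 times as much (0.536 to 1.75). The value for Got1 restates the contrast that chose it, and only that for Got2, whose interval includes 1, compares genes not chosen for their ratio. Styxl1, which starts 94 bp from Mdh2 on the other strand, had 0 counts in both libraries. The 3 processed pseudogenes similar to Mdh2 (Gm12384, Gm12369 and Gm11241) matched at 77.2% to 79.7% identity and were not among the genes named in the counts.

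By level per kilobase of transcript the order in the non-transgenic library was Gm10874 (4432 CPM per kb), Mdh2 (585), Got1 (121) and Got2 (66.3). In the transgenic library it was the same, with 3171, 608, 346 and 66.4. The counting intervals of neighbours in this order were apart, except for Got1 and Got2 in the non-transgenic library, whose ratio had a lower end of 1.09.

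Mdh1, the cytosolic malate dehydrogenase, had no count in either library. It lies on chromosome 11 (21556787 to 21572367, minus strand). The floor set for a count of 0 stood at 8.79 and 6.99 CPM per kb. This floor is not the limit of counting error, because the exact 95% counting interval of Mdh1 reached above it, to 3.69 counts in each library. Mdh1 has 2 RefSeq accessions in the count tables, both at 0, and both are matched to the same GENCODE transcript of 2122 bases. Of 400 genes with 2 accessions matched to a single GENCODE transcript, 43 (10.8%) had a count in either library. Over all genes, 41.1% of 17075 with 1 accession and 14.9% of 7929 with several had a count. A count of 0 for Mdh1 therefore does not show that the heart lacks its messenger RNA. Wdpcp, which overlaps the start of Mdh1 on the other strand by 133 bp, was at 0 as well, and it too has 2 accessions. A processed pseudogene similar to Mdh1, 9530050K03Rik (78.5% identity), was not among the genes named in the counts.

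**Figure D4:**
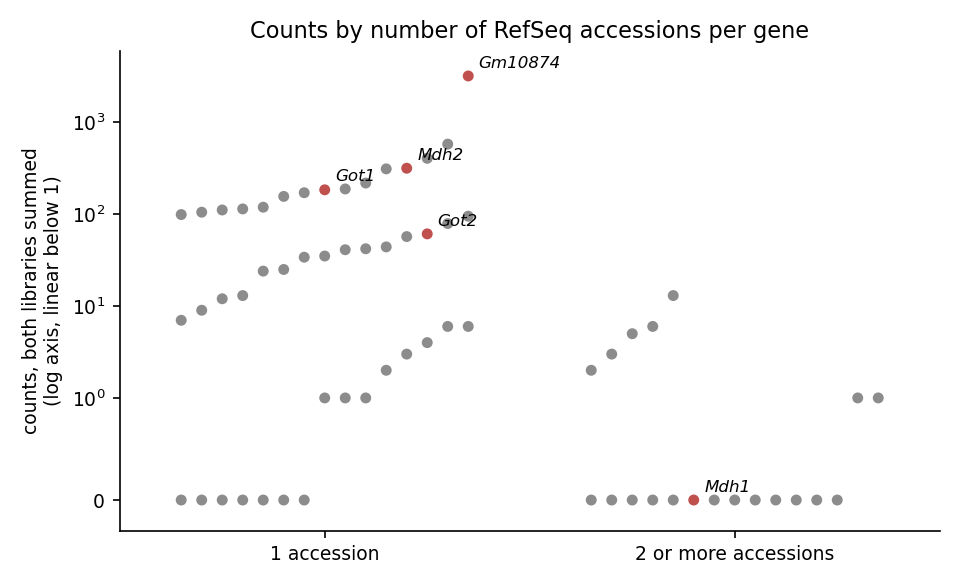
Counts of both libraries summed (log axis, linear below 1) for the 5 genes (red) and the genes of the lists described next (grey), by the number of RefSeq accessions per gene; sideways position only separates the points. Of 45 genes with 1 accession 38 had a count, against 7 of 20 genes with 2 or more, and the highest summed count in the second group was 13.

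Of the 3 carrier genes of the shuttle, Slc25a11 had a ratio whose reading depended on the scaling, Slc25a12 had a ratio near 1 and Slc25a13 had no count. Slc25a11 encodes the carrier that exchanges malate for 2-oxoglutarate and overlaps a gene on the opposite strand. Its counts were 38 and 67, at a ratio of 1.40 (0.928 to 2.15). This became 1.51 (1.00 to 2.31) with DESeq2 size factors, the lower end just above 1, and 1.58 (1.04 to 2.41) with total counts. Slc25a12, the aspartate-glutamate carrier of muscle and brain also called aralar, was counted 15 and 19 times, which gave 1.01 (0.485 to 2.13). A second aspartate-glutamate carrier gene, Slc25a13, had no count and has 2 accessions. With TMM factors neither carrier with a ratio was at least 1.5-fold apart with an interval on the same side of 1, the size used for calls in the lists below. Slc25a11 reached that size with the other 2 scalings just given. By that size, 3.42% of all genes with a ratio were higher and 5.9% lower. The share of higher among all such calls, 36.7%, became 54.1% under DESeq2 size factors and 62.2% under plain totals. These scalings shifted the median log2 ratio over all genes by 0.11 and 0.17.

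Genes of the tricarboxylic acid cycle, to which Mdh2 also belongs, had a median log2 ratio between 0.21 and 0.42 over the 5 scalings. Of 17 genes other than Mdh2, 12 had a ratio, of which 2 (16.7%) were 1.5-fold or more higher and 0 lower, leaving 10. Over all genes with a ratio, 3.42% were higher by that size and 5.9% lower. The median log2 ratio of the 12 was 0.25, beside 0.05 over all genes with a ratio. It was 0.13 over the 1289 genes with a gene within 5 kb on the other strand but no overlap. Of the 12, 10 belong to that class. Over genes with at least 30 summed counts, the medians of all genes and of that class were -0.10 and 0.06. With a minimum of 10 counts in 1 library, the median of the list was 0.19. The higher genes were Dlst and Sdhd. Dlst, the succinyltransferase of the 2-oxoglutarate dehydrogenase complex, had 34 and 80 counts, a ratio of 1.87 (1.24 to 2.88). Sdhd, a membrane anchor of succinate dehydrogenase, had 31 and 64 counts, a ratio of 1.64 (1.05 to 2.61). Cs, citrate synthase, which uses the oxaloacetate that Mdh2 makes, had 84 and 134 counts, a ratio of 1.27 (0.958 to 1.69). Fh1, fumarase, which makes the malate of the cycle, had 76 and 95 counts, a ratio of 0.994 (0.727 to 1.36). Thus the enzymes on either side of Mdh2 in the cycle had intervals that included 1, as Mdh2 did. Sucla2, a subunit of succinyl-CoA synthetase, had 1 and 5 counts and a ratio of 3.98 (0.445 to 188). Idh3g, Ogdh, Suclg2 and Sdhb had no count, and each has several accessions.

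**Figure D5:**
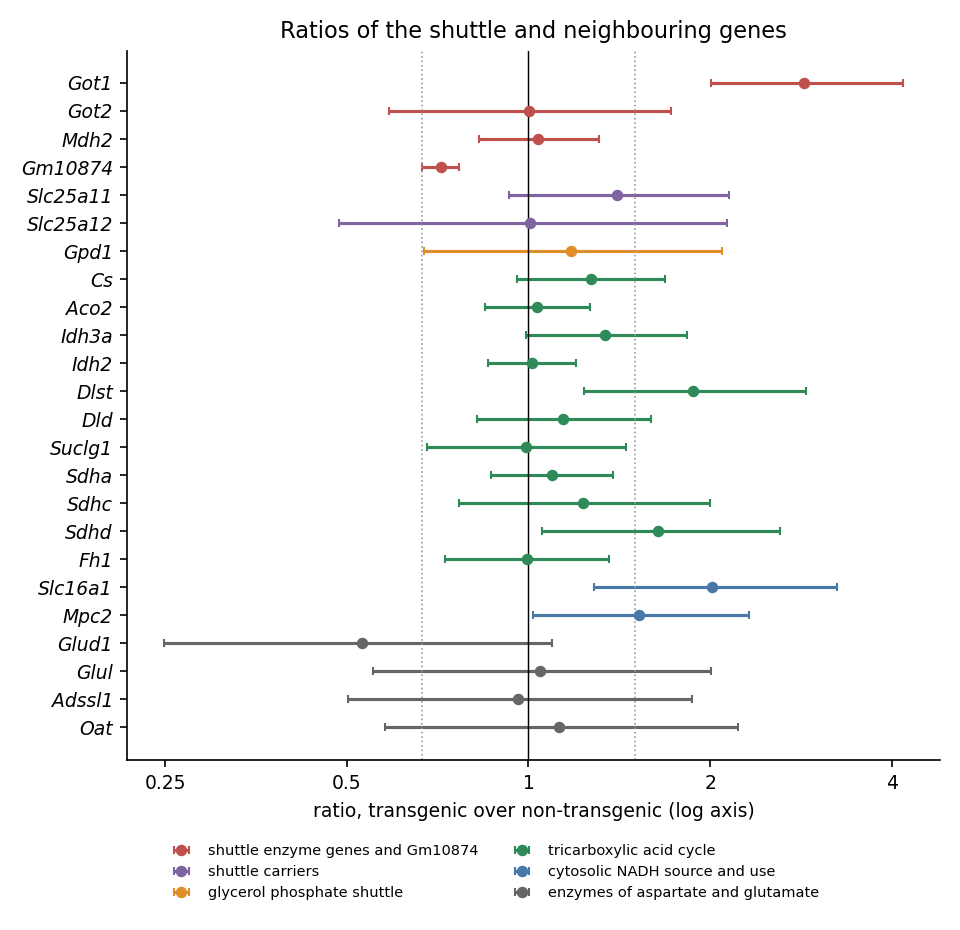
Transgenic level divided by non-transgenic level (log axis), with exact 95% counting intervals for the genes with a ratio and at least 30 counts in both libraries summed, coloured by list; dotted lines mark 1.5-fold in either direction. The interval of Got1, a gene chosen for its ratio, lies above 1. Those of Got2 and Mdh2 include 1, and that of Gm10874 lies below 1.

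Other routes for cytosolic NADH and pyruvate held 2 genes that were higher. Over the 43 genes of the carriers, the glycerol phosphate shuttle and the neighbouring enzymes, 18 had a ratio, with a median log2 ratio of 0.20. Of these 18, 2 were 1.5-fold or more higher and 0 lower, leaving 16. The shares over all genes with a ratio were 3.42% higher and 5.9% lower. Slc16a1, a monocarboxylate transporter that moves lactate and pyruvate across the cell membrane, had 28 and 71 counts, a ratio of 2.02 (1.29 to 3.24). Mpc2, a subunit of the mitochondrial pyruvate carrier, had 38 and 73 counts, a ratio of 1.53 (1.02 to 2.32), which was below 1.5 with upper-quartile scaling. Gpd1, the cytosolic enzyme of the glycerol phosphate shuttle, which carries electrons of cytosolic NADH by another route, had 23 and 34 counts, a ratio of 1.18 (0.672 to 2.09). Its relative Gpd1l had 4 and 8 counts and the mitochondrial enzyme gene Gpd2 had 4 and 1. None of these 3 was called. Gapdh, the glycolytic enzyme that makes cytosolic NADH, and the lactate dehydrogenase genes Ldha and Ldhb, which use it, had no count in either library, and each has 2 or more accessions. The cytosolic side of NADH turnover was thus covered only in part.

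The genes that make or use aspartate, glutamate and malate elsewhere were counted at low levels. Of 17 enzymes of aspartate and glutamate, 8 had a ratio and none was 1.5-fold apart beyond its interval. Over all genes with a ratio, 3.42% were higher by that size and 5.9% lower, so nothing is read from the lack of calls among 8 genes. The most counted over both libraries summed were Glul, glutamine synthetase, with 19 and 25 counts and a ratio of 1.05 (0.553 to 2.01), and Adssl1, the muscle adenylosuccinate synthase, which joins aspartate to inosine monophosphate, with 19 and 23 and a ratio of 0.962 (0.501 to 1.87). The malic enzyme gene Me3 was counted 13 and 12 times, at a ratio of 0.734 (0.306 to 1.74), and Me1 had 2 and 0. Among carriers of acidic amino acids in the cell membrane, Slc1a1 was counted 5 and 2 times, at a ratio of 0.318 (0.0303 to 1.94), and Slc1a3 had none. The other mitochondrial carriers of malate, aspartate or glutamate had at most 2 counts in a library, on Slc25a10 and Slc25a18. Of the relatives of the enzymes themselves, Got1l1 and Mdh1b had no count, Ldhd had 2 and 4 and Uevld 2 and 1. The interval of every gene given a ratio in this group included 1.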

How the data were processed

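RNA selected with poly-T was sequenced from strand-marking TruSeq libraries, per the labels' protocols. The authors deposited raw counts per RefSeq transcript accession, and STAR, HTSeq and mm10 appear in the submitters' processing notes. Their versions, the annotation and the strand and ambiguity settings are not given in the sources read. Reads assigned to the wrong strand, or dropped because transcripts share them, would change what a count stands for.

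RefSeq's gene table named 41247 of 41449 accessions, GENCODE M21 (GRCm38, equal to mm10) named 104 more, and 98 kept their accession. Both sample columns were used. Library sizes were scaled with TMM factors (0.943 and 1.06) from edgeR 4.0.16 in R 4.3.3. A gene had a ratio if a library held more than 3 counts, and a count of 0 was replaced by this floor. Intervals are exact: Clopper-Pearson for ratios and shares, Poisson for counts, conditional for ratios of ratios (scipy 1.17.1). They cover counting error only, as reads without molecular identifiers are not independent molecules. Opposite-strand exons were found with bedtools 2.31.1 and similar transcripts with BLAST 2.17.0 in the GENCODE transcripts, the source of the printed sequences. The ratio calculation was tested on simulated counts.

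The members and lists were chosen with earlier results of these data known. The rule for named genes took the 5 members, their opposite-strand partners and pseudogenes, the shuttle carriers, the called genes of each other list or else its 2 most counted genes, and the 3 genes nearest to Got1. Cs, Fh1, Sucla2, Idh3a, Gapdh, Ldha, Ldhb, Gpd2, Rps18-ps4, the sex-chromosome genes and the list genes named for having no count were chosen after their values were seen. Alternatives were other scalings, among them DESeq2 1.42.0 size factors, a stricter count minimum and the most counted accession per gene.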

Additional observations from a re-analysis of the deposited data

How the results depend on the processing

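Alternatives were tried on the ratios of Got1, Got2, Mdh2 and Gm10874, on the ratio of Got1 to Got2 and on the list results. By the rule used, 43 gave the same reading and 3 moved. A member's ratio passed as the same if it stayed within its TMM interval. A list count passed if it changed by at most 1.5-fold, so a change from 2 to 3 passed. Settings with the most counted accession could not differ and are among the 43. The log2 ratio of Gm10874 was -0.48 with TMM and moved to -0.37 when DESeq2 size factors were used and -0.31 when total counts were. The neighbouring enzymes at least 1.5-fold higher were 2 with TMM and 1 with upper-quartile factors, since Mpc2 was then below that size. They were 3 with DESeq2 size factors and 3 with plain totals, where Slc25a11 was added. The log2 ratio of Got1 ranged from 1.49 to 1.69 over the scalings. The median of the tricarboxylic acid cycle genes ranged from 0.19 to 0.42, and with total counts alone 3 of them were higher, with Idh3a added. Over all genes, 1.5-fold calls of 145 higher and 250 lower became 218 and 185 with DESeq2 size factors and 244 and 148 with total counts alone, and 2-fold calls of 105 and 157 became 167 and 95 with total counts alone. Using the most counted accession changed no member, as each member with counts has 1 accession, and Mdh1, with no count, gave no value under any setting. The ratio of Mdh1 to Mdh2 was not run for the same reason. Leaving out a library was not possible with 1 per group. No paired analysis was possible because each group has 1 library. With 190824 counts or fewer per library, depth limits the genes below about 30 counts most.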
